A study of Mus musculus with 4 samples.

Results

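The genes described here encode the Krüppel-like factors (KLF) and the ETS transcription factors of cultured mouse pancreatic ductal cells. They were chosen by gene symbol, with earlier results of these data known. All symbols of the Klf series were taken, together with Elf1 to Elf5, Elk1, Elk3, Elk4, Ets1, Ets2, Etv1 to Etv6, Ehf, Erg, Fli1, Gabpa, Spdef and Erf. This gave 39 genes, 17 KLF and 22 ETS, out of 22869 symbols measured. A gene with several RefSeq transcripts was represented by whichever had most counts on average over the 4 libraries.

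The primary ductal cells came from adult C57BL/6 mice that had not been induced before isolation. The 2 libraries labelled knockout came from Sox9CreER;HhexL/L animals, which carry floxed Hhex alleles and a tamoxifen-dependent Cre under the Sox9 promoter. The 2 control libraries came from HhexL/L littermates without the Cre. All cultures received 500 nM 4-hydroxytamoxifen, the ligand that activates this Cre, over 4 days, so exposure to the compound was shared. By genotype 1 group alone carried the Cre, so effects of the Cre and of a floxed deletion cannot be told apart. Per the design text each group came from 2 mice.

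KLF proteins bind GC-rich and CACCC sequences through 3 zinc fingers at their C terminus, and ETS proteins bind a GGAA core through the winged-helix ETS domain. In epithelia, Klf4 and Klf5 are known for opposed roles in differentiation and proliferation, and Ehf, Elf3, Elf5 and Spdef form an ETS group largely restricted to epithelial cells. Several ETS proteins, among them Ets1, Ets2, the Elk factors, Etv1, Etv4, Etv5 and Erf, are controlled by ERK phosphorylation or lie downstream of receptor tyrosine kinases.

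Each library held between 25257778 and 39582625 counts. Transcripts of Hhex, the gene targeted, measured 23.6 and 38.97 CPM, counts scaled to a common library size, in the labelled-knockout libraries, against 24.8 and 17.7 CPM in the controls (edgeR adjusted p = 0.734). Hhex was thus not reduced, and the labels give no deleted exons, so the libraries are named by their labels only. The cells carried ductal markers, with all 11 markers of the list tested and a summed level of 16766 and 13511 CPM in the labelled-knockout libraries and 12897 and 15374 CPM in the controls. Single ductal markers differed in direction: both labelled-knockout libraries lay above both controls for 3 of the 11 and below them for 4. Transcripts of Sox9 itself had a log2 fold change of 1.30 (edgeR adjusted p = 0.0512). Muc1 and Cftr were lower in both labelled-knockout libraries, with log2 fold changes of -2.24 and -0.94 (edgeR adjusted p = 0.214 and 0.344). The SD of the log2 CPM difference over transcripts was 0.523 between the labelled-knockout libraries and 0.412 between the controls, against 0.407 to 0.556 between libraries of different groups. Xist stood at 304 CPM in labelled-knockout replicate 2 and at 0.750 to 1.75 CPM in the other 3 libraries, so that library alone came from a female by this measure.

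Levels of different genes were compared in the deposited RPKM, which scale reads by transcript length and library total. Klf6, a zinc finger factor induced by tissue injury, dominated its family. It stood at 106 and 108 RPKM in the labelled-knockout libraries and at 87.9 and 123 RPKM in the controls. This was 67.0% and 67.5% of the summed KLF RPKM in the labelled-knockout libraries and 71.1% and 74.2% in the controls. Every other KLF gene had a mean under 10 RPKM over the 4 libraries. Klf9, with 12.1 and 10.2 RPKM in the labelled-knockout libraries and 7.09 and 8.89 RPKM in the controls, and Klf10, with 11.2 and 11.9 RPKM in the labelled-knockout libraries and 5.45 and 7.21 RPKM in the controls, came next. Klf10 made up 7.11% and 7.46% of the summed KLF RPKM in the labelled-knockout libraries and 4.41% and 4.36% in the controls. The sum over the KLF genes was 157.6 and 159.4 RPKM in the labelled-knockout libraries and 123.6 and 165.4 RPKM in the controls, so the groups overlapped in the family total.

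ETS transcripts were spread more evenly over genes. Ehf, an epithelium-restricted factor, led with 34.9 and 42.4 RPKM in the labelled-knockout libraries and 37.2 and 42.6 RPKM in the controls. That was 19.4% and 25.9% of the summed ETS RPKM in the labelled-knockout libraries and 23.8% and 23.3% in the controls. Ets1, Ets2, Elf2 and Elf1 followed, with mean levels over the 4 libraries of 26.4, 21.4, 20.6 and 14.7 RPKM. Ets1 lay above Ets2 and Elf2 in each of the 4 libraries, while Ets2 was above Elf2 in 3 of them and below it in control replicate 1. The ETS sum overlapped between groups as well, at 179.8 and 163.9 RPKM in the labelled-knockout libraries and 156.4 and 182.8 RPKM in the controls. Below them stood the GA-binding protein subunit gene Gabpa at 9.03 RPKM, Elk3 at 6.83 RPKM and Elf3 at 6.77 RPKM.

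A lower tier held 13 of the 39 genes, with means under 1 RPKM. Those of the KLF family were Klf1, Klf2, Klf8, Klf12, Klf14 and Klf17, and those of the ETS family were Elf4, Elf5, Erg, Spdef, Fli1, Etv2 and Etv1. Of these 13, all but Elf4 had under 100 counts in every library. The epithelial group was therefore carried by Ehf and, at a lower level, Elf3. Elf5, known from mammary and trophoblast cells, stood at 0.278 and 0.219 RPKM in the labelled-knockout libraries and 0.512 and 0.504 RPKM in the controls. Spdef, a factor of goblet and other secretory cells, stood at 0.140 and 0.0931 RPKM in the labelled-knockout libraries and 0.354 and 0.136 RPKM in the controls.

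**Figure D1:**
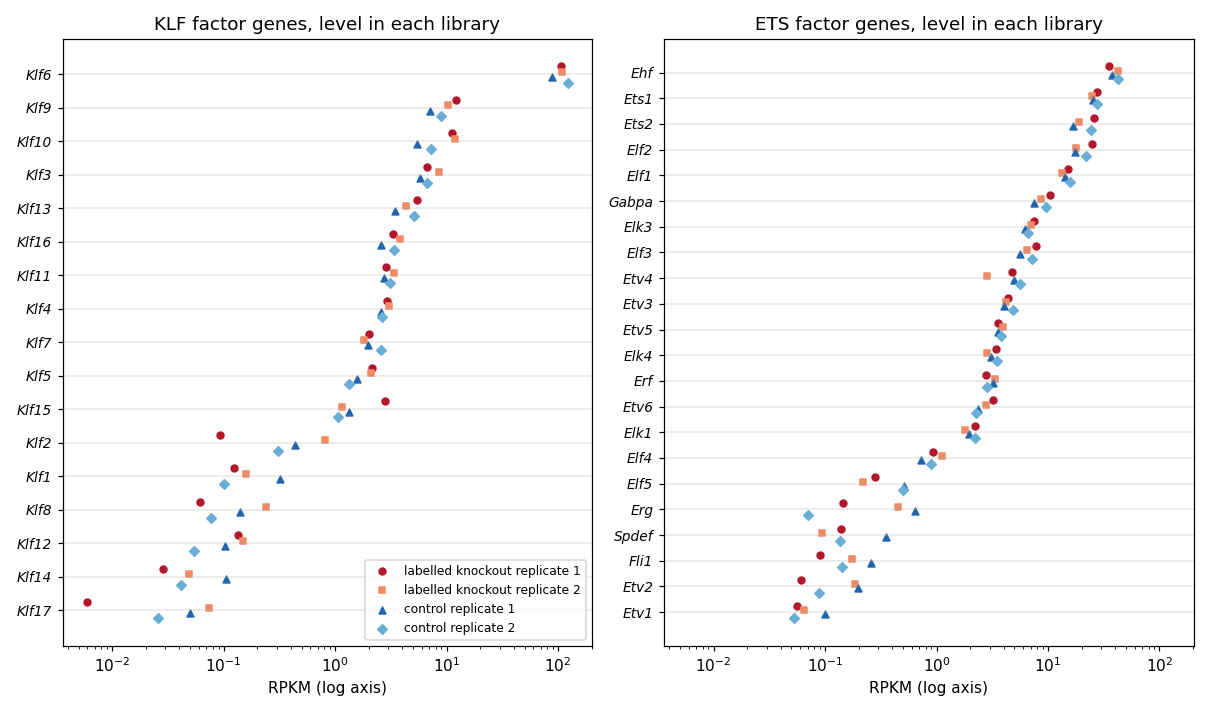
Level of each KLF gene (left) and ETS gene (right) in RPKM on a log axis, with 1 point per library and genes ordered by their mean. Klf6 stands apart from the other KLF genes at 87.9 to 123 RPKM, while the ETS genes descend from Ehf in small steps.

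The comparison of libraries labelled knockout with controls asks which of these genes differ when Hhex is targeted in ductal cells. Of the 39 genes, 34 passed the filter on low counts, and Klf1, Klf14, Klf17, Spdef and Etv2 did not. None of the 34 was called by edgeR's quasi-likelihood test at an adjusted p of 0.05, while 0.153% of all 20949 transcripts tested were. DESeq2 called 1 member, Klf10, and 1.6% of the 18912 transcripts to which it gave an adjusted p. Klf10, highest of the KLF fold changes, had the lowest adjusted p of the members at 0.185. At an unadjusted p under 0.05, edgeR had 2 members higher (5.88%), Klf10 and Klf9, against 4.7% of all transcripts, and 0 lower against 2.81%. Both labelled-knockout libraries lay above both controls in CPM for 8 of the 34 (23.5%), against 19.1% of all transcripts, and below them for 6 (17.6%), against 17% of all transcripts. These shares lie near those of all transcripts and are no result about the 2 families together. In these bulk libraries, fewer cells of a type and less RNA per cell cannot be told apart.

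Positive fold changes were most of those of the KLF genes and fewer of those of the ETS genes. Of 14 KLF genes tested, 12 had a positive log2 fold change and 2 a negative one, with a median of 0.22. Of 20 ETS genes tested, 7 were positive and 13 negative, with a median of -0.10. Over all transcripts 48.3% were positive and the median was -0.01. The difference between the families was not tested. The labelled-knockout libraries differed in this, with a median shift from the control mean, in log2 CPM, of 0.06 in labelled-knockout replicate 1 and 0.33 in replicate 2. Without replicate 2 the KLF median log2 fold change was 0.04.

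**Figure D2:**
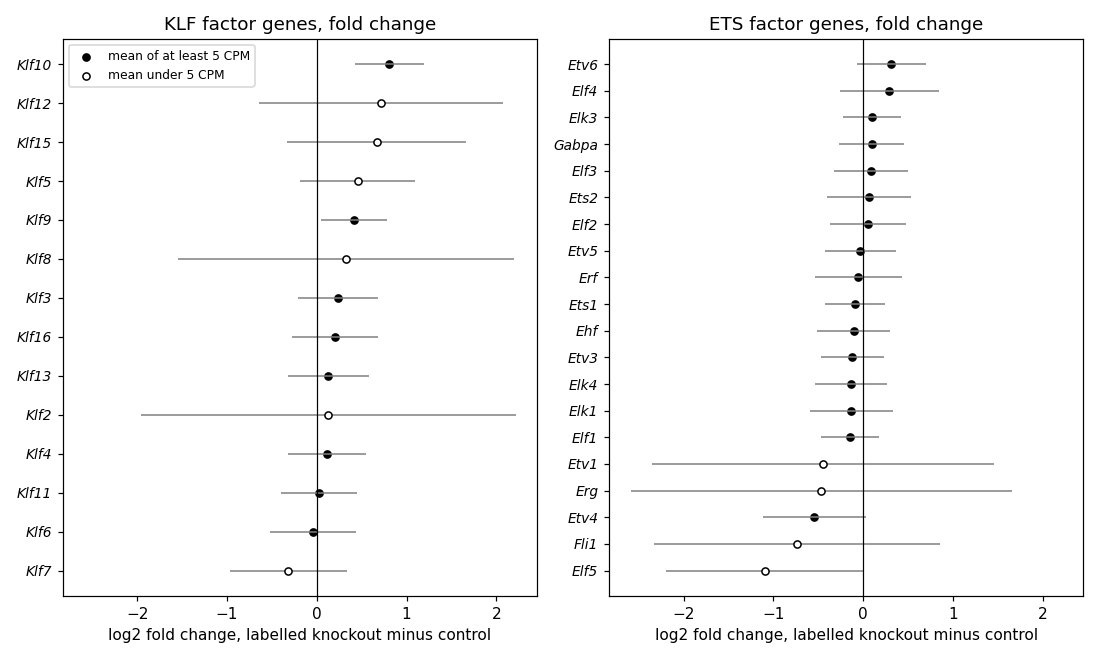
Log2 fold change (labelled knockout minus control) of the 14 KLF genes (left) and 20 ETS genes (right) tested, with 95% intervals from edgeR. Filled points mark genes with a mean of at least 5 CPM, whose intervals are narrower, and the intervals of Klf10 and Klf9 alone lie wholly on one side of 0.

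Klf10, a zinc finger repressor first described as an early gene induced by TGF-beta, had the smallest p of the members. It stood at 43.1 and 48.1 CPM in the labelled-knockout libraries and at 23.4 and 28.7 CPM in the controls, on 643 to 1609 counts per library. Both labelled-knockout libraries lay above both controls. Its mean was 45.6 ± 3.53 CPM in the labelled-knockout libraries and 26.1 ± 3.73 CPM in the controls (SD, n = 2 each). The fold change was 1.75 with a 95% interval of 1.34 to 2.29, and the edgeR adjusted p was 0.185. With DESeq2 on the same counts Klf10 was called, with an adjusted p of 0.0196 beside 303 transcripts called in all, the only member called by any of the 8 alternatives that kept all libraries. Its log2 fold change lay between 0.74 and 0.87 in those alternatives and between 0.66 and 0.996 with each library left out in turn. Its edgeR or limma adjusted p in the other alternatives with all libraries ran from 0.0907 to 0.279. The log2 fold change was 0.86 with labelled-knockout replicate 1 left out and 0.71 with replicate 2 left out. Each of these fits holds a single library in that group, so an edgeR call there does not measure the spread of that group. Klf10 was not called with either control left out. Its close relative Klf11 overlapped between groups, at 14.5 and 17.7 CPM in the labelled-knockout libraries and 15.4 and 16.2 CPM in the controls.

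Klf9, a repressor of the same subgroup that glucocorticoid and thyroid hormone induce in several tissues, also separated the groups. Klf9 stood at 49.7 and 44.3 CPM in the labelled-knockout libraries and at 32.7 and 37.9 CPM in the controls. The fold change was 1.33 with a 95% interval of 1.04 to 1.71, and the edgeR adjusted p was 0.569. The means were 47.0 ± 3.82 CPM in the labelled-knockout libraries and 35.3 ± 3.72 CPM in the controls (SD, n = 2 each). Without labelled-knockout replicate 2 the log2 fold change of Klf9 was 0.48, in a fit with a single library in that group. No alternative with all libraries called Klf9 (edgeR, DESeq2 or limma adjusted p 0.464 to 0.775). Klf13 and Klf16, relatives of Klf9, overlapped between the groups. Klf13 was at 44.1 and 37.1 CPM in the labelled-knockout libraries and 31.2 and 43.1 CPM in the controls (log2 fold change 0.13 ± 0.19 SE). Klf16 was at 11.1 and 13.4 CPM in the labelled-knockout libraries and 9.58 and 11.7 CPM in the controls (log2 fold change 0.20 ± 0.21 SE). Summed over Klf9, Klf10, Klf11, Klf13, Klf14 and Klf16, the level was 163 and 161 CPM in the labelled-knockout libraries and 113 and 138 CPM in the controls. Within this sum only Klf9 and Klf10 separated the groups, and Klf11, Klf13, Klf14 and Klf16 overlapped.

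Klf15, a regulator of amino acid and glucose metabolism that glucocorticoid induces, differed in a single library. Klf15 stood at 8.20 and 3.52 CPM in the labelled-knockout libraries and at 4.30 and 3.16 CPM in the controls. Only labelled-knockout replicate 1 was high, on 306 counts, and replicate 2 lay between the controls. The log2 fold change was 0.67 ± 0.43 (SE). It was -0.12 without labelled-knockout replicate 1 and 1.11 without replicate 2, each in a fit with a single library in that group. No alternative with all libraries called Klf15 (edgeR, DESeq2 or limma adjusted p 0.788 to 0.979). Klf15 lay below the mean of 5 CPM set for detailed description and was taken up after its values were seen.

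Klf4 and Klf5, which direct differentiation and proliferation in gut epithelium and act in ductal metaplasia of the mouse pancreas, were modestly expressed. Klf5 stood at 4.69 and 4.77 CPM in the labelled-knockout libraries and at 3.86 and 3.00 CPM in the controls, on 74 to 175 counts. Both labelled-knockout libraries were higher, but the 95% interval of the fold change of 1.37 ran from 0.881 to 2.14 (edgeR adjusted p = 0.808). Klf4 stood at 11.2 and 12.4 CPM in the labelled-knockout libraries and at 11.1 and 10.5 CPM in the controls, with a 95% interval of the fold change from 0.803 to 1.46. The groups of Klf4 did not overlap, although 11.17 CPM in labelled-knockout replicate 1 lay beside 11.15 CPM in control replicate 1.

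The dominant gene Klf6 did not separate the groups. It stood at 562 and 603 CPM in the labelled-knockout libraries and at 524 and 677 CPM in the controls, with both labelled-knockout libraries between the controls. The 95% interval of its fold change ran from 0.698 to 1.35. Klf3, a repressor that recruits the corepressor CtBP, was at 19.6 and 26.2 CPM in the labelled-knockout libraries and 18.8 and 20.03 CPM in the controls (log2 fold change 0.24 ± 0.19 SE). Without labelled-knockout replicate 2 its log2 fold change was -0.003. Klf7, a broadly expressed factor studied mostly in neurons, was the most negative KLF gene, at 3.38 and 3.23 CPM in the labelled-knockout libraries and 3.72 and 4.54 CPM in the controls (log2 fold change -0.32 ± 0.28 SE). Klf12, another CtBP-binding repressor, was at 0.964 and 1.13 CPM in the labelled-knockout libraries and 0.838 and 0.405 CPM in the controls, on 10 to 36 counts.

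**Figure D3:**
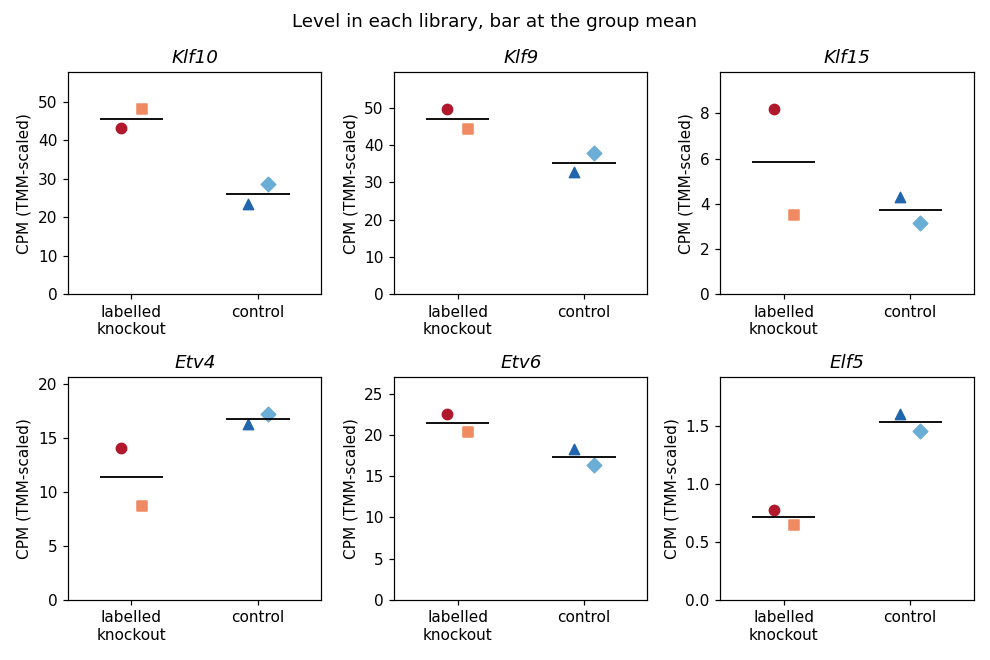
CPM of 6 genes in each library, with a bar at the group mean and points for labelled-knockout replicate 1 (circle) and replicate 2 (square) and control replicate 1 (triangle) and replicate 2 (diamond). Klf10, Klf9 and Etv6 are higher in both labelled-knockout libraries, Etv4 and Elf5 are lower in both, and Klf15 is high in labelled-knockout replicate 1 alone.

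The start-proximal sequence of a few of these genes is shown because their levels contrast: Klf9 was above the controls in both labelled-knockout libraries, Klf15 in 1, Klf6 was the most abundant KLF gene, and Etv6 had the highest ETS fold change. No start-proximal sequence was at hand under the symbols Klf10, Etv4, Ehf and Ets1, so these could not be shown. Each run is the 250 bases before the annotated start, 5′ to 3′ on the gene's strand, from RefSeq on GRCm38.p6. They lie on the plus strand at chr19:23140976-23141225 for Klf9, chr6:90462326-90462575 for Klf15, chr13:5861239-5861488 for Klf6 and chr6:134035450-134035699 for Etv6. Capitals mark CACCC (the KLF box), GGGCGG (the GC box bound by SP and KLF factors) and CCGGAA (the ETS core with its flank), each searched on both strands.
Klf9: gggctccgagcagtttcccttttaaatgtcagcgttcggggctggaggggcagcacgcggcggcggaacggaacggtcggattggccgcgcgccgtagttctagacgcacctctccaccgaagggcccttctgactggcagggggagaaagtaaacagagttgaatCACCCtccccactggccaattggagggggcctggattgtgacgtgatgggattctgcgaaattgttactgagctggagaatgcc
Klf15: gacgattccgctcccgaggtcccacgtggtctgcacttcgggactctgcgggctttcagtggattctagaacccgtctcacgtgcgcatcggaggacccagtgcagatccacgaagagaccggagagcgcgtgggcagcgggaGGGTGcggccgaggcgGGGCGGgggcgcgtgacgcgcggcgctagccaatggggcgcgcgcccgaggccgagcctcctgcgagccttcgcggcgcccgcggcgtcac
Klf6: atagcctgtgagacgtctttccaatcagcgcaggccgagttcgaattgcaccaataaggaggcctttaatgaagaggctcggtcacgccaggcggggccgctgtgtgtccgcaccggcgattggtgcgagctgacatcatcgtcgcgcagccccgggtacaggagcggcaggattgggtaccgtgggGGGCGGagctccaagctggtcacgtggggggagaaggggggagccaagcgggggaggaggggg
Etv6: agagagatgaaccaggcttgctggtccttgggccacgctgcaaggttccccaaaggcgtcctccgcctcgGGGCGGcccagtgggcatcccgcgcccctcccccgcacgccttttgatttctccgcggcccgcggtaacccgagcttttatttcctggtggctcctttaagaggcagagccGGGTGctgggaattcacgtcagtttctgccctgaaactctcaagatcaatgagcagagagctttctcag

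The Klf9 window held 1 CACCC, the Klf6 window 1 GGGCGG, and the Klf15 and Etv6 windows 1 of each, while CCGGAA was in none of these windows. Of 32536 distinct windows of the same length in the table, 52.1% held CACCC, 33% GGGCGG and 12.1% CCGGAA. Of the 39 genes, 31 matched the table by symbol, and 26 of them had CACCC, 22 GGGCGG and 3 CCGGAA. A gene was counted if any of its windows held the sequence, so these counts and the shares per window are unlike measures. The printed windows were 59.6% (Klf9), 72% (Klf15), 64.8% (Klf6) and 60.4% (Etv6) G or C, against a median of 52.4% over all windows. These letters are a description of the windows and not of binding.

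Among the ETS genes, Etv4 had the smallest p of those with a mean of at least 5 CPM. Etv4 belongs to the PEA3 group, which FGF and EGF receptor signalling induces through ERK. It stood at 14.1 and 8.74 CPM in the labelled-knockout libraries and at 16.4 and 17.2 CPM in the controls, on 271 to 527 counts. Both labelled-knockout libraries lay below both controls, and replicate 2 was the lowest. The log2 fold change was -0.55 ± 0.24 (SE) and the edgeR adjusted p was 0.683. The log2 fold change was -0.27 without labelled-knockout replicate 2 and -0.97 without replicate 1, each in a fit with a single library in that group. No alternative with all libraries called Etv4 (edgeR, DESeq2 or limma adjusted p 0.524 to 0.844). The means were 11.4 ± 3.80 CPM in the labelled-knockout libraries and 16.8 ± 0.617 CPM in the controls (SD, n = 2 each).

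The other PEA3 genes did not separate the groups. Etv5 stood at 17.1 and 20.1 CPM in the labelled-knockout libraries and at 19.2 and 18.8 CPM in the controls, with a 95% interval of its log2 fold change from -0.42 to 0.36. Etv1 was near the floor, with 11 counts in each library labelled knockout and 16 and 7 in the controls. Summed over Etv1, Etv4 and Etv5, the level was 31.6 and 29.2 CPM in the labelled-knockout libraries and 36.1 and 36.3 CPM in the controls.

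The ETS repressors shared no direction. Etv6, a repressor needed in blood stem cells, stood at 22.6 and 20.5 CPM in the labelled-knockout libraries and at 18.3 and 16.3 CPM in the controls. Both labelled-knockout libraries were higher, with a fold change of 1.24 and a 95% interval of 0.951 to 1.62 (edgeR adjusted p = 0.754). Etv3, a repressor that restrains growth in macrophages, stood at 28.2 and 28.7 CPM in the labelled-knockout libraries and at 29.2 and 32.7 CPM in the controls. Its 2 deposited transcripts had identical counts in every library, so they are 1 measurement. Erf, an ERK-regulated repressor, overlapped between groups at 12.2 and 15.6 CPM in the labelled-knockout libraries and 15.8 and 12.9 CPM in the controls.

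The abundant epithelial factors did not separate the groups. Ehf stood at 193 and 247 CPM in the labelled-knockout libraries and at 231 and 244 CPM in the controls, and its values overlapped (95% interval of the log2 fold change -0.52 to 0.30). Elf3 stood at 19.7 and 17.1 CPM in the labelled-knockout libraries and at 15.9 and 18.9 CPM in the controls (95% interval -0.33 to 0.50). Elf5 was low, with 29 and 20 counts in the labelled-knockout libraries and 44 and 36 in the controls, which is 0.777 and 0.645 CPM in the labelled-knockout libraries and 1.60 and 1.46 CPM in the controls. Both labelled-knockout libraries were lower, with a log2 fold change of -1.09 ± 0.47 (SE), an unadjusted p of 0.051 and an edgeR adjusted p of 0.667. Elf5, under the mean of 5 CPM, was described after its values were seen. The other 13 members given full statistics (Klf3, Klf4, Klf6, Klf13, Klf16, Elf1, Elf3, Elf4, Elk4, Ehf, Etv1, Etv3 and Etv5) had edgeR adjusted p-values from 0.889 to 0.983.

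Broadly expressed ETS activators had small fold changes. Ets1, which RAS-ERK signalling activates, stood at 175 and 168 CPM in the labelled-knockout libraries and at 182 and 183 CPM in the controls. The groups did not overlap, but the difference was small, with a log2 fold change of -0.09 ± 0.14 (SE). Ets2, its close relative, overlapped at 116 and 89.4 CPM in the labelled-knockout libraries and 84.4 and 112 CPM in the controls. Elf1, an activator best known from lymphoid cells, was at 80.7 and 75.0 CPM in the labelled-knockout libraries and 84.3 and 87.7 CPM in the controls (95% interval of the log2 fold change -0.47 to 0.18). Elf2, its relative, overlapped at 84.4 and 63.96 CPM in the labelled-knockout libraries and 66.3 and 76.9 CPM in the controls. Gabpa, which drives nuclear genes of mitochondria together with its GABPB partner, also overlapped at 65.1 and 57.7 CPM in the labelled-knockout libraries and 52.8 and 62.3 CPM in the controls.

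The ternary complex factors bind DNA together with serum response factor. Summed over Elk1, Elk3 and Elk4, the level was 65.5 and 61.9 CPM in the labelled-knockout libraries and 62.8 and 64.1 CPM in the controls, and the groups overlapped. Elk3, which represses targets until ERK phosphorylates it, stood at 39.8 and 39.5 CPM in the labelled-knockout libraries and at 37.1 and 36.8 CPM in the controls. Its groups did not overlap, at a fold change of 1.07 with a 95% interval of 0.856 to 1.34. Elk4 was at 15.8 and 13.9 CPM in the labelled-knockout libraries and 15.8 and 16.9 CPM in the controls (95% interval of the log2 fold change -0.54 to 0.27).

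Of the members, Elk1, Elf4 and Klf8 lie on the X chromosome, and labelled-knockout replicate 2 was the library with Xist. Elk1 stood at 9.91 and 8.45 CPM in the labelled-knockout libraries and at 9.87 and 10.3 CPM in the controls, lowest in that library. Elf4, a regulator of innate immune genes, stood at 6.91 and 8.77 CPM in the labelled-knockout libraries and at 5.94 and 6.85 CPM in the controls, highest in that library. Its fold change was 1.22 with a 95% interval of 0.836 to 1.79. Klf8 stood at 0.348 and 1.42 CPM in the labelled-knockout libraries and at 0.874 and 0.446 CPM in the controls. The part of sex in these values was not tested.

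**Figure D4:**
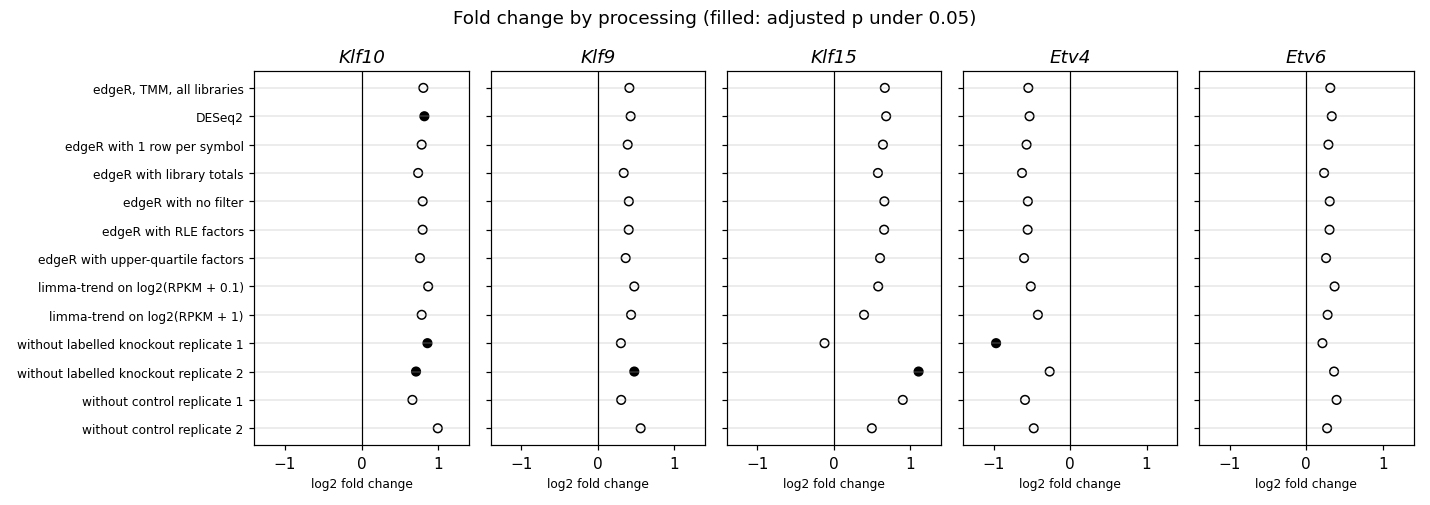
Log2 fold change (labelled knockout minus control) of 5 genes under the analysis described, 8 alternatives with all libraries, and with each library left out. Klf10 stays between 0.66 and 0.996, while Klf15 and Etv4 shift when a labelled-knockout library is left out. Filled points have an adjusted p under 0.05. With a labelled-knockout library left out, that p does not measure the spread of its group.

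Some members near the floor were high in 1 library of each group. Erg, a factor of endothelial cells, stood at 0.402 and 1.32 CPM in the labelled-knockout libraries and at 2.00 and 0.203 CPM in the controls. Fli1, a factor of endothelial and blood cells, stood at 0.348 and 0.710 CPM in the labelled-knockout libraries and at 1.13 and 0.568 CPM in the controls. Klf2, a factor of endothelial cells and resting lymphocytes, stood at 0.214 and 1.97 CPM in the labelled-knockout libraries and at 1.13 and 0.730 CPM in the controls. All of these were higher in labelled-knockout replicate 2 and control replicate 1 than in the other libraries. The same libraries were highest for Klf1, Klf8, Klf14, Klf17, Etv1 and Etv2, so this was not particular to endothelial factors. Of the other members near the floor, Elf5, Klf12 and Spdef did not share it.

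The 8 endothelial markers of the list summed to 2.87 and 6.74 CPM in the labelled-knockout libraries and to 9.29 and 3.16 CPM in the controls, in the same order of libraries as Erg apart from the lowest pair. Of them 6 passed the filter and 0 were at 0 in every library, with Pecam1 and Cdh5 between 0.243 and 1.02 CPM. The 8 blood markers measured summed to 17.7 and 7.45 CPM in the labelled-knockout libraries and 12.1 and 13.4 CPM in the controls, mostly from Cd68. Fibroblast markers summed to 4.96 and 7.68 CPM in the labelled-knockout libraries and 12.5 and 6.45 CPM in the controls. Acinar, endocrine and erythroid markers were lower still and had the same order of libraries within each group. Acinar markers summed to 1.77 and 3.71 CPM in the labelled-knockout libraries and 4.59 and 2.19 CPM in the controls. Endocrine markers summed to 0.750 and 1.48 CPM in the labelled-knockout libraries and 2.08 and 1.05 CPM in the controls, and erythroid markers to 0.857 and 1.45 CPM in the labelled-knockout libraries and 1.68 and 1.05 CPM in the controls. The part of other cell types in the low members was not tested.

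**Figure D5:**
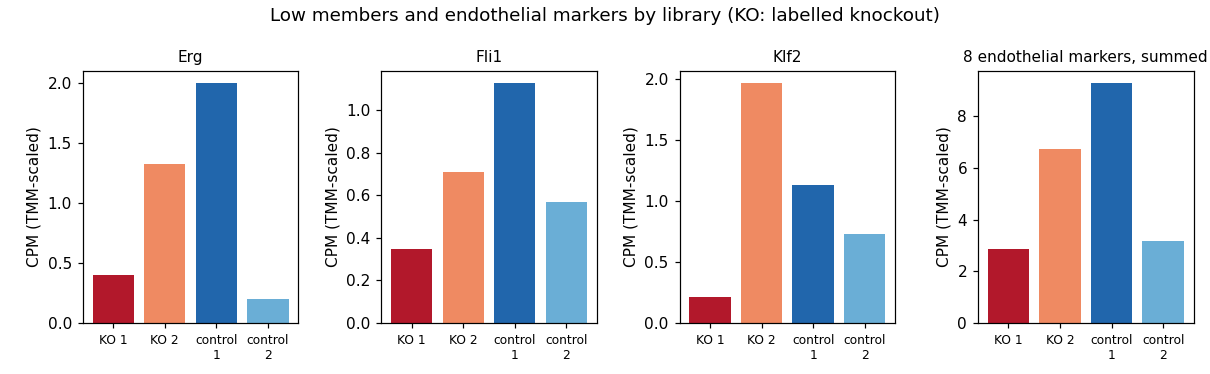
CPM of Erg, Fli1 and Klf2 and the summed CPM of 8 endothelial markers, with 1 bar per library from 0. Control replicate 1 and labelled-knockout replicate 2 (KO 2) hold the higher bars in each panel.

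Klf1, Klf14, Klf17, Spdef and Etv2 did not pass the filter, with 1 to 25 counts in any library. Klf1, the erythroid factor of globin genes, had 9 and 10 counts in the labelled-knockout libraries and 19 and 5 in the controls. Klf14, a regulator of metabolic genes in fat, had 4 and 6 counts in the labelled-knockout libraries and 12 and 4 in the controls. Klf17, a factor of mouse germ cells, had 1 and 11 counts in the labelled-knockout libraries and 7 and 3 in the controls. All of these lie at a level where a few reads set the order of the libraries. Spdef had 12 and 7 counts in the labelled-knockout libraries and 25 and 8 in the controls. In CPM both labelled-knockout libraries of Spdef lay below both controls, with 0.321 in labelled-knockout replicate 1 beside 0.324 in control replicate 2. Etv2, a factor of vascular progenitors, had 3 and 8 counts in the labelled-knockout libraries and 8 and 3 in the controls. The filter left all of these genes out of the edgeR comparison, so no difference between the groups was assessed there. The edgeR alternative with no filter tested all 39 members and called 0, against 0.0887% of all transcripts.

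None of the 70 genes tested in 7 lists of relatives, partners and targets was called by edgeR over all transcripts. The lists were chosen with earlier results of these data known, so shares above those of all transcripts are no result about them. At an unadjusted p under 0.05, 6 were higher (8.57%, against 4.7% of all transcripts) and 4 lower (5.71%, against 2.81%). DESeq2 called 4 of 68 with an adjusted p (5.88%, against 1.6% of all transcripts), Ccnd1 and Plau higher and Sp5 and Tagln lower. Limma on log2(RPKM + 0.1) called 1, Sp5, against 1.05% of all transcripts. EdgeR called 8 of the 70 (11.4%) without labelled-knockout replicate 1, against 7.86% of all transcripts, and 11 (15.7%) without replicate 2, against 8.69%. Of 14 KLF partners and regulators tested, 5 had positive and 9 negative fold changes, with a median log2 fold change of -0.10. Wwp1, a ubiquitin ligase that targets Klf5, stood at 41.2 and 35.7 CPM in the labelled-knockout libraries and at 29.7 and 29.6 CPM in the controls (edgeR adjusted p = 0.612). The deacetylase gene Hdac1 overlapped at 6.56 and 10.3 CPM in the labelled-knockout libraries and 7.25 and 5.43 CPM in the controls.

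Among the SP factors, the nearest relatives of the KLF factors, 3 of 6 tested were positive and 3 negative, with a median log2 fold change of -0.06. Sp5, a Wnt target, stood at 0.161 and 0.290 CPM in the labelled-knockout libraries and at 2.15 and 0.973 CPM in the controls (edgeR adjusted p = 0.309). The ubiquitous Sp1 stood at 66.5 and 65.6 CPM in the labelled-knockout libraries and at 55.4 and 62.7 CPM in the controls. Of 8 genes described as KLF targets that were tested, 5 were positive and 3 negative, with a median log2 fold change of 0.06. Tagln, an actin-binding protein gene of smooth muscle, stood at 268 and 163 CPM in the labelled-knockout libraries and at 339 and 513 CPM in the controls (edgeR adjusted p = 0.411), and Cdh1, the E-cadherin gene, at 627 and 617 CPM in the labelled-knockout libraries and 492 and 568 CPM in the controls.

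Of 12 ETS partners and regulators, 7 were positive and 5 negative, with a median log2 fold change of 0.01. Runx1, a DNA-binding partner of Ets1, stood at 24.5 and 19.1 CPM in the labelled-knockout libraries and at 13.1 and 14.7 CPM in the controls, that is, 0.65 ± 0.19 (SE) higher on the log2 scale (edgeR adjusted p = 0.408). Trib2, a pseudokinase gene, was low, at 0.455 and 0.323 CPM in the labelled-knockout libraries and 1.38 and 0.608 CPM in the controls. Of 13 genes described as ETS targets that were tested, 6 were positive and 7 negative, with a median log2 fold change of -0.03. Both Plau, the urokinase gene, and Serpinb5, the maspin gene, were higher in both labelled-knockout libraries, with log2 fold changes of 0.85 ± 0.19 and 0.56 ± 0.18 (SE) and edgeR adjusted p-values of 0.216 and 0.485.

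The ERK feedback and output genes, measured because Etv4, Etv5 and the Elk factors lie on that pathway, were mixed. Of 16 tested, 9 were positive and 7 negative, with a median log2 fold change of 0.03. Ccnd1, the cyclin D1 gene, had a log2 fold change of 0.88 ± 0.22 (SE; edgeR adjusted p = 0.308). Dusp5, a phosphatase of nuclear ERK, stood at 37.8 and 40.6 CPM in the labelled-knockout libraries and at 50.9 and 56.2 CPM in the controls (edgeR adjusted p = 0.462). Dusp6, the cytoplasmic ERK phosphatase, was added after its values were seen and stood at 165 and 158 CPM in the labelled-knockout libraries and 159 and 156.5 CPM in the controls. Of the ETS genes outside the selection, Spib was tested and overlapped, at 0.509 and 1.61 CPM in the labelled-knockout libraries and 1.60 and 0.649 CPM in the controls, and Fev and Spic were not tested.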

How the data were processed

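RNA was sequenced from 4 cultures of mouse pancreatic ductal cells, 2 labelled Hhex knockout and 2 control by genotype. Per the labels' protocols, total RNA was prepared with a Qiagen RNeasy kit and libraries with an Illumina TruSeq RNA v2 kit. The deposited tables give raw counts and RPKM for 28644 RefSeq transcripts. The build mm9 and the tool edgeR come from the submitters' processing notes. For the aligner, counting program and strand setting, the entry is: not given in the sources used here. Deposited RPKM were tied to the counts by library totals of the authors' choice, which stood at 1.22 and 1.06 in the libraries labelled knockout and 1 and 0.832 in the controls, relative to control replicate 1: the order of the count totals, in other proportions.

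Counts of all transcripts were filtered with filterByExpr (minimum count 10, minimum total 15), scaled by TMM and compared, knockout minus control, by edgeR's quasi-likelihood F test (edgeR 4.0.16, legacy method off, R 4.3.3). P-values were adjusted by Benjamini-Hochberg over the 20949 transcripts tested, with a threshold of 0.05. The common biological coefficient of variation was 0.234. CPM are TMM-scaled. SE and 95% intervals come from the F statistic. The design text gives 2 mice per group.

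The members and lists were chosen with earlier results of these data known. Full statistics were given for up to 6 members per family with the smallest p and a mean of at least 5 CPM, and for Klf4, Klf5, Klf6, Elf3, Ehf, Etv1, Etv4, Etv5 and, if tested, Spdef; from each list, up to 2 genes with the smallest p. Alternatives were RLE, upper-quartile and no scaling factors, no filter, DESeq2 1.42.0, 1 row per symbol, limma-trend (limma 3.58.1) on log2(RPKM + 1) and log2(RPKM + 0.1), and each library left out. Spi1 was not analysed here. Chromosomes and promoter windows came from RefSeq on GRCm38.p6, matched by transcript or symbol.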

Additional observations from a re-analysis of the deposited data

How the results depend on the processing

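Over the 8 alternatives that kept all libraries, the 18 named members and Hhex kept direction and side of the threshold in 147 of 152 values. The exceptions were Klf10, called by DESeq2 (log2 fold change 0.82), and Etv5 and Klf6, which turned positive on RPKM with either pseudocount (0.028 and 0.034 for Etv5, 0.037 and 0.038 for Klf6). DESeq2 called 1 member higher, and the other alternatives called 0 members. All transcripts called higher and lower numbered 22 and 10 with edgeR and TMM factors, 0 and 5 with library totals and with upper-quartile factors, 0 and 2 with 1 row per symbol, 207 and 96 with DESeq2, 125 and 65 with log2(RPKM + 1) and 149 and 72 with log2(RPKM + 0.1). Without a filter 6 were lower. The ETS median log2 fold change was -0.17 with library totals, -0.15 with upper-quartile factors, -0.022 with log2(RPKM + 1) and -0.0047 with log2(RPKM + 0.1). The median of all transcripts then lay between -0.09 and 0.05. The cause was not tested.

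With each library left out, 1 group holds a single library that is assumed to vary like the other group. Members called then ran from 0 to 3 higher and from 0 to 1 lower, and transcripts from 0 to 1181 higher and from 0 to 860 lower. Without labelled-knockout replicate 1, Klf10 and Etv4 were called among 1742 transcripts. Without replicate 2, Klf10, Klf9 and Klf15 were called among 1911. Without control replicate 1 and without control replicate 2 no member was called, and edgeR had 1 and 2 members at an unadjusted p under 0.05. The fits without labelled-knockout replicate 1 and without replicate 2 tested 37 members each, among 22176 and 21986 transcripts. Transcripts of all kinds were called there in large numbers, so calls of members there are no result about the members. With each library left out, the median log2 fold change ran from 0.036 to 0.32 for KLF genes and from -0.14 to -0.041 for ETS genes. The share of all transcripts that changed sign in these fits was not computed, so the count for members is only a description. Of the 34 members tested, 16 changed sign in at least 1 of these fits. Among the 18 named members their log2 fold changes ran from -0.22 to 0.19 for Klf6, -0.0027 to 0.41 for Klf3, -0.089 to 0.42 for Klf13, -0.31 to 0.032 for Ehf, -0.044 to 0.25 for Elf3, -0.17 to 0.052 for Etv5 and -0.81 to 0.18 for Etv1. The others were Klf2, Klf8, Klf11, Klf15, Elf2, Ets2, Erf, Erg and Gabpa. The tested members under 5 CPM had a median SE of 0.63 against 0.18 for the others tested, and the part of depth in this was not tested. No paired analysis was possible because the labels give the groups no shared replicate numbers.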
